A study of Rattus norvegicus with 6 samples.

Results

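The plasminogen activation and tissue factor genes examined here were Plau, Plaur, Plat, Serpine2, Serpinb2, F3, Tfpi, Tfpi2 and Thbd. These 9 genes were chosen by name, and each has a row among the 34156 genes of the deposited count table. RNA was sequenced from 6 cultures of rat cells labelled RA-FLS (fibroblast-like synoviocytes, the fibroblasts of the joint lining), in 2 groups of 3. The TNF-α group received 10 ng/mL TNF-α, and the TNF-α+EMO group received the same TNF-α together with 80 μmol/L emodin (EMO), an anthraquinone from rhubarb. The cells are labelled wild type with rheumatoid arthritis as the disease state, and the methods describe them as purchased. All cultures carried TNF-α, so the response to TNF-α itself was not measured, and a vehicle for EMO is not named in the sources used here. The labels give day 5 as the time, whereas the methods describe a day-long incubation. The methods call the 3 samples of a group biological replicates, but the labels do not say whether they came from separate animals. The p-values thus measure only the spread between these samples, which may be technical.

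As background, plasminogen activators cut plasminogen into plasmin, the protease that dissolves fibrin and also helps to clear matrix. Plau encodes the urokinase type, which acts on the cell surface when held by its receptor Plaur, and Plat encodes the tissue type. Serpins stop both enzymes by forming a covalent complex with them. Serpine2 (protease nexin 1) inhibits thrombin and the activators, and Serpinb2 (PAI-2) inhibits urokinase and is largely retained inside the cell. F3, tissue factor, starts coagulation with factor VII, Tfpi and Tfpi2 are Kunitz-type inhibitors, of which Tfpi blocks the tissue factor pathway, and Thbd, thrombomodulin, turns thrombin towards activation of protein C. In the inflamed joint, fibrin deposits and plasmin activity are well known features.

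The libraries held 16813322 to 17794455 counts on genes. At this depth, a floor of 3 counts corresponds to 0.170 to 0.180 on the counts-per-million scale (CPM, with effective library sizes). TNF-α+EMO replicate 3 stood apart from the other replicates of its group, with a chi-square per gene of 23.5 and 15.1 against them, where the other pairs within a group gave 4.62 to 6.27 and noise alone gives about 1. Without it, the members below remained called in the same direction, at 1.05 ± 0.11 for Plaur, -2.11 ± 0.19 for Plat, -3.84 ± 0.06 for Serpine2, 6.0 ± 0.18 for Serpinb2, -3.26 ± 0.09 for F3 and -1.52 ± 0.06 for Tfpi (log2 difference and SE from edgeR).

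The labelled cell type was checked against marker lists. Of 12 fibroblast markers, 11 were analysed, and their summed level was 11700 to 12800 CPM with TNF-α and 2050 to 2200 with EMO. Of these, 8 were tested, and 7 were called lower and 1 higher with EMO, where 80.9% of all genes tested were called. Col1a1, a main collagen chain of fibroblasts, went from 111181 ± 9932 to 3709 ± 46.1 normalized counts (SD, n = 3 each), Vim from 61464 ± 1350 to 32387 ± 1299, and Dcn, a matrix proteoglycan, the other way from 1.62 ± 2.03 to 28.4 ± 5.01. The synovial markers Thy1, Pdpn and Prg4 had at most 7 counts in any library, which goes against the label of synoviocytes at these markers. Other markers of the list were well detected with TNF-α and lower with EMO. Normalized means went from 2968 to 40.3 for Cdh11, 20844 to 216 for Pdgfra, 3035 to 139 for Pdgfrb and 11635 to 26.7 for Col3a1. Fap had 27, 42 and 27 counts with TNF-α and 0 with EMO. Fap passed the filter used below only through the TNF-α libraries, and Dcn only through the TNF-α+EMO libraries. Endothelial markers, which matter because endothelium is a known source of Plat, Tfpi and Thbd, summed to 4.08 to 4.45 CPM with TNF-α and 0.948 to 1.32 with EMO over 6 genes, with 3 to 11 counts of Cdh5. Macrophage markers summed to 70.0 to 76.0 and 42.7 to 46.7 CPM over 8 genes, nearly all from Cd14, which was lower with EMO (-1.10 ± 0.09 on the log2 scale, SE), and Cd68, which was higher (0.75 ± 0.13), and Ptprc and Csf1r had at most 5 counts. Of the 5 epithelial markers, which summed to 579 to 629 and 114 to 134 CPM, Epcam was at 0 in all libraries and Krt8 gave nearly all the counts. The 3 lymphocyte markers summed to at most 0.285 CPM in any library. The summed fibroblast markers were lower with EMO, as were 4 of the 6 members tested below, and their part in those differences was not tested. In bulk samples, fewer cells of a type and less RNA per cell cannot be told apart.

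Promoter windows are shown first for Plaur, Serpinb2 and Serpine2, since Plaur and Serpinb2 were the members higher with EMO and Serpine2 was the most abundant member and was lower. Each window runs 5′ to 3′ on the gene's strand, from 250 bases before to 50 bases after the start site, and comes from RefSeq on build GRCr8. Such windows were found for 6 of the 9 genes (Plau, Plaur, Serpinb2, Serpine2, Tfpi and Tfpi2). Capitals mark TGANTCA in Plaur (chr1:89181113-89181412, plus strand) and Serpinb2 (chr13:24055771-24056070, plus strand). This pattern is looser than the AP-1 consensus TGA(C/G)TCA, which the stretch in Plaur (TGACTCA) matches and that in Serpinb2 (TGATTCA) does not. In Serpine2 (chr9:88637153-88637452, minus strand), capitals mark GGGCGG or its reverse complement, the GC box that binds Sp1. Some GC boxes of Serpine2 overlap or touch.
Plaur: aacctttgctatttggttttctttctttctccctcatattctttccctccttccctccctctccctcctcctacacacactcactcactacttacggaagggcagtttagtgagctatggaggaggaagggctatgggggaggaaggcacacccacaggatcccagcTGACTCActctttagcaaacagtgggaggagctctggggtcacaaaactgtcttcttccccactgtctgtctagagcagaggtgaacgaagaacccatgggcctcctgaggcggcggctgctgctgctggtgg
Serpinb2: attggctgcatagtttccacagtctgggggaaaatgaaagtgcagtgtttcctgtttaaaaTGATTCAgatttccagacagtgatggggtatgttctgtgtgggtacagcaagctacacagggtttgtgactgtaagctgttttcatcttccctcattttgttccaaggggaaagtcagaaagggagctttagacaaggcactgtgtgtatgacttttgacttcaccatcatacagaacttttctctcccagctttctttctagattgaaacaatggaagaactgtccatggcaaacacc
Serpine2: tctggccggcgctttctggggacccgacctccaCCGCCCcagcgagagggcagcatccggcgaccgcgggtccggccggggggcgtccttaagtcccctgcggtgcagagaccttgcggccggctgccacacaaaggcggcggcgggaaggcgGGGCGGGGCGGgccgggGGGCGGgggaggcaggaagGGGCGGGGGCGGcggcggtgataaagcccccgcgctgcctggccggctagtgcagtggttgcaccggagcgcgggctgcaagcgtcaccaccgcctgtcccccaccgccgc

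The motif TGANTCA, which reads the same on both strands, started 83 bases before the start site in Plaur, 189 before it in Serpinb2 and 80 before it in Tfpi2, and no match was found in the windows of Plau, Serpine2 or Tfpi. Among all 33469 windows, 7.33% held it. The NF-κB consensus was matched in the window of Tfpi2 alone among the 6 genes, 139 bases before the start, against 7.51% of all windows. Serpine2 held 6 GC boxes, Plau 3 and Tfpi2 1 (58 bases before the start), counted on both strands, while 33.1% of all windows held at least 1. TATAAA was found in no member's window, against 14.2% of all windows. The Serpine2 window was 77.0% G and C with 37 CpG dinucleotides, and the Serpinb2 window was 42.7% G and C with 0, where the median over all windows was 51.7% and 7. Tfpi has 2 listed starts, of which only the upstream window held a GC box. These matches describe letters in the windows and no binding was measured.

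**Figure D1:**
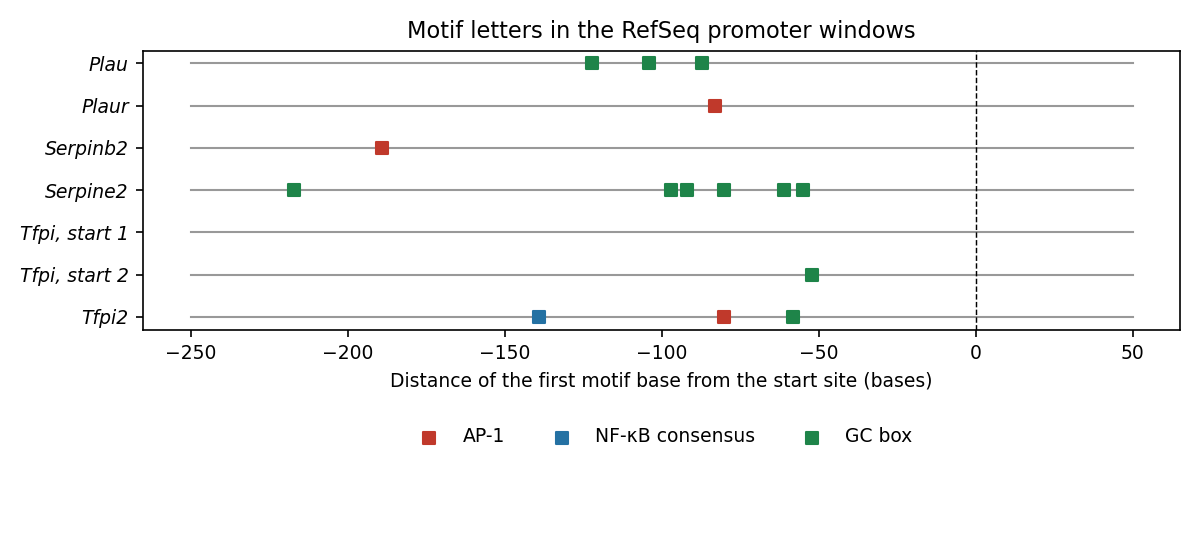
Positions of motif letters in 7 promoter windows of 6 genes, with the distance of the first motif base from the start site in bases on the x axis and a grey line for each window. Squares mark matches to TGANTCA (labelled AP-1), the NF-κB consensus and the GC box on either strand, and the AP-1 squares lie in Plaur, Serpinb2 and Tfpi2.

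Of the 9 genes, 6 had at least 10 counts in at least 3 libraries and entered the comparison of 13614 genes by edgeR's quasi-likelihood test. With EMO, 4 were lower (Plat, Serpine2, F3 and Tfpi) and 2 were higher (Plaur and Serpinb2) at an adjusted p under 0.05. Over all genes tested, 80.9% were called at this threshold, 41.4% lower and 39.4% higher, so being called does not set these genes apart. Each of the 6 also passed an absolute log2 fold change of 1, as did 47.3% of all genes tested. The groups did not overlap for any of the 6, as for 82.9% of all genes tested. Serpinb2 passed the filter only through the TNF-α+EMO libraries. The median log2 fold change of the 6 was -1.92, beside -0.01 over all genes tested. Plau, Tfpi2 and Thbd were under the filter.

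**Figure D2:**
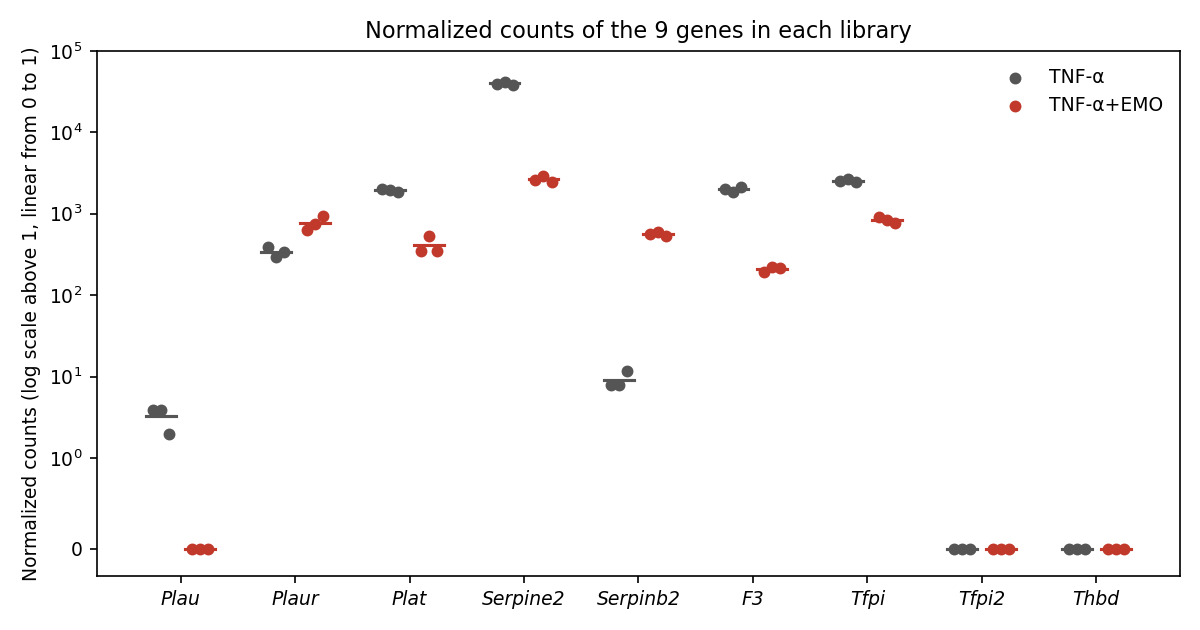
Normalized counts of the 9 genes in each of the 6 libraries (points) with the mean of each group (bar), on an axis that is logarithmic above 1 and linear from 0 to 1. Grey is TNF-α and red is TNF-α+EMO, and Serpine2 at 39623 and Serpinb2 at 9.11 in the TNF-α group mark the widest span among the tested genes.

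Among the activators, Plat carried nearly all the counts. Plat (chromosome 16, 74098260 to 74122889, minus strand, in the deposited coordinates) was counted 2070, 2007 and 1885 times in TNF-α replicates 1 to 3 and 340, 525 and 340 times in TNF-α+EMO replicates 1 to 3. All TNF-α libraries were far above all TNF-α+EMO libraries, and replicate 2 stood above the other TNF-α+EMO libraries. Its normalized mean was 1941 ± 98.0 with TNF-α and 411 ± 109 with EMO (SD, n = 3). In the fit, from which all folds of tested genes below are taken, that is 4.72-fold lower, or -2.24 ± 0.16 on the log2 scale (SE, edgeR adjusted p = 1.9e-06). Plau (chromosome 15, 3644769 to 3650819, minus strand) had 4, 4 and 2 counts with TNF-α and 0 in each TNF-α+EMO library. Its 10 reads in all place it next to the floor. The normalized TNF-α mean was 1.06 times that floor of 3 counts per library, and TNF-α replicate 3 lay under it, so no smallest fold is given. In a fit without a filter on low counts, which held 19744 genes, the difference in Plau was -4.76 ± 1.66 on the log2 scale (SE, edgeR adjusted p = 0.018), a value that depends on the small count the fit adds. Per kilobase, the level of Plau was 0.00225 ± 0.000707 of that of Plat in the TNF-α libraries.

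Plaur, the urokinase receptor, moved the other way from Plat. Its row (chromosome 1, 81328183 to 81344708, plus strand) held 394, 299 and 343 counts with TNF-α and 616, 722 and 930 with EMO. The lowest TNF-α+EMO library lay above the highest TNF-α library, but the TNF-α+EMO libraries were also the more spread. Its normalized mean rose 2.29-fold, from 337 ± 47.5 with TNF-α to 774 ± 159 with EMO (SD, n = 3), which is 1.20 ± 0.16 on the log2 scale (SE, edgeR adjusted p = 5.3e-05). A larger rise was seen in 15.6% of all genes tested. Receptor and enzyme thus stood far apart in level, since the level of Plau per kilobase was 0.00535 ± 0.00207 of that of Plaur with TNF-α, and Plau was listed at 0 with EMO.

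The serpins differed most in level. Serpine2 (chromosome 9, 85560863 to 85626094, minus strand) was counted 40255, 41973 and 39472 times with TNF-α and 2489, 2821 and 2424 times with EMO. Each group was tight, and the groups lay more than an order of magnitude apart. Its normalized mean was 39623 ± 1245 with TNF-α and 2641 ± 218 with EMO (SD, n = 3), 15.0-fold lower and -3.91 ± 0.07 on the log2 scale (SE, edgeR adjusted p = 7.8e-12). Ranked by counts per kilobase, Serpine2 was number 39 of the 13614 tested genes in the TNF-α group and number 1616 in the TNF-α+EMO group. Serpinb2 (chromosome 13, 27449934 to 27463010, plus strand) went the opposite way, from 8, 8 and 12 counts with TNF-α to 550, 585 and 517 with EMO. It was close to undetected in every TNF-α library and moderately expressed in every TNF-α+EMO library. The normalized mean was 9.11 ± 2.23 with TNF-α and 564 ± 36.1 with EMO (SD, n = 3). The fitted rise was 61.1-fold, or 5.93 ± 0.17 on the log2 scale (SE, edgeR adjusted p = 1.1e-10). Only 121 of the genes tested (0.889%) had a larger log2 fold change upwards, which places Serpinb2 nearest to the edge of the distribution among the 6. This rank is only a description, since Serpinb2 passed the filter only through the TNF-α+EMO libraries, where it was high.

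In the tissue factor arm, F3 and Tfpi were both lower with EMO. F3 (chromosome 2, 225310624 to 225322272, plus strand) had 2074, 1910 and 2176 counts with TNF-α and 185, 216 and 209 with EMO. The libraries of each group lay close together and the groups far apart. Its normalized mean was 2006 ± 131 with TNF-α and 208 ± 15.6 with EMO (SD, n = 3). The fitted difference of F3 was 9.62-fold lower, or -3.27 ± 0.09 on the log2 scale (SE, edgeR adjusted p = 8.8e-11). Tfpi (chromosome 3, 71852744 to 71893618, minus strand) had 2576, 2727 and 2517 counts with TNF-α and 882, 818 and 752 with EMO. The inhibitor was thus still well detected in each TNF-α+EMO library. Tfpi had a normalized mean of 2546 ± 105 with TNF-α and 838 ± 71.9 with EMO (SD, n = 3), 3.04-fold lower and -1.60 ± 0.08 on the log2 scale (SE, edgeR adjusted p = 6.1e-09), the smallest of the 4 decreases.

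Tfpi2 (chromosome 4, 28947965 to 28953067) and Thbd (chromosome 3, 142748674 to 142752325) had 0 counts in all 6 libraries. A count of 0 allows an RPKM (here CPM per kilobase of the deposited gene length) of up to 0.0939 to 0.0994 for Tfpi2 and 0.0465 to 0.0493 for Thbd, depending on the library, for counting error only. Neither gene was detectable at this depth in either group, and no fold is given. No member overlapped another listed gene in the deposited coordinates.

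Levels of different genes were compared as this RPKM, recomputed from the counts with the effective library sizes. In the TNF-α group the order was Serpine2 at 1074 ± 33.7, F3 at 64.0 ± 4.18, Plat at 44.4 ± 2.24, Tfpi at 38.3 ± 1.58, Plaur at 19.1 ± 2.70, Serpinb2 at 0.270 ± 0.0661 and Plau at 0.101 ± 0.0352 (SD, n = 3), and no neighbours of these overlapped in range. In the TNF-α+EMO group it was Serpine2 at 71.6 ± 5.92, Plaur at 43.9 ± 9.02, Serpinb2 at 16.7 ± 1.07, Tfpi at 12.6 ± 1.08, Plat at 9.41 ± 2.49 and F3 at 6.65 ± 0.499, where Tfpi and Plat overlapped in range. F3, second with TNF-α, was therefore the lowest of the 6 tested genes with EMO, and Serpinb2, the lowest of the 6 with TNF-α, stood above Tfpi, Plat and F3 with EMO. The summed level of the 9 genes was 1210 to 1270 RPKM with TNF-α and 150 to 170 RPKM with EMO. Serpine2 made up 86.2% to 87.3% of it with TNF-α and 41.2% to 46.3% with EMO, while Plaur went from 1.30% to 1.77% up to 24.0% to 33.1%.

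**Figure D3:**
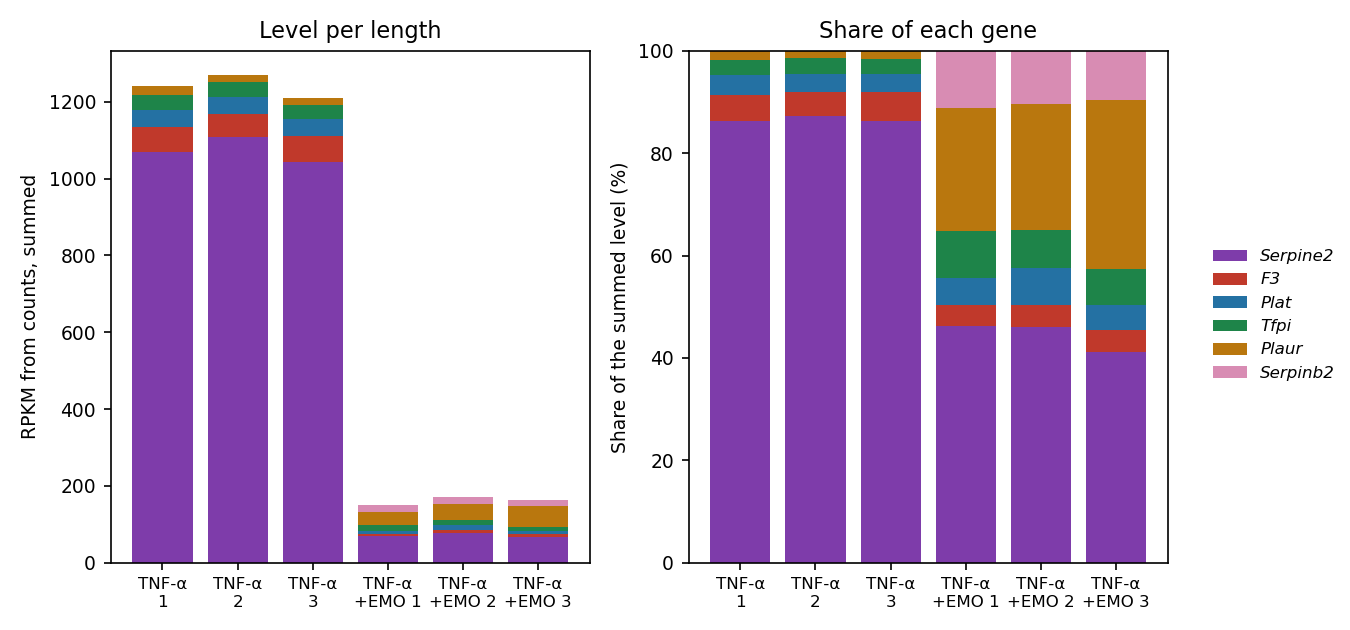
Summed level of the 9 genes in RPKM from counts (left) and the share of each gene in percent (right), in each library. Serpine2 (purple) fills 86.2% to 87.3% of the TNF-α bars, and Plaur (ochre) and Serpinb2 (pink) widen in the TNF-α+EMO bars, while Plau, Tfpi2 and Thbd are too low to be drawn.

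Ratios within a library do not depend on the scaling between libraries, and are given as descriptions with no test. The level of the activators (Plau and Plat) per kilobase was 0.0435, 0.0405 and 0.0404 of that of the serpins (Serpine2 and Serpinb2) with TNF-α, and 0.0929, 0.128 and 0.0960 with EMO. Both sums were lower with EMO, the serpins by more, and the ratio was 2.52-fold higher by the mean of log2 ratios, with no overlap between the groups. Tissue factor relative to Tfpi and Tfpi2 was 1.71, 1.49 and 1.84 with TNF-α and 0.446, 0.561 and 0.590 with EMO. This ratio was 3.16-fold lower, again with no overlap, and it rested on Tfpi alone, since Tfpi2 was at 0 in all libraries. F3 thus exceeded Tfpi in level per kilobase in every TNF-α library and in none of the TNF-α+EMO libraries. Thbd was listed at 0 beside F3 throughout.

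**Figure D4:**
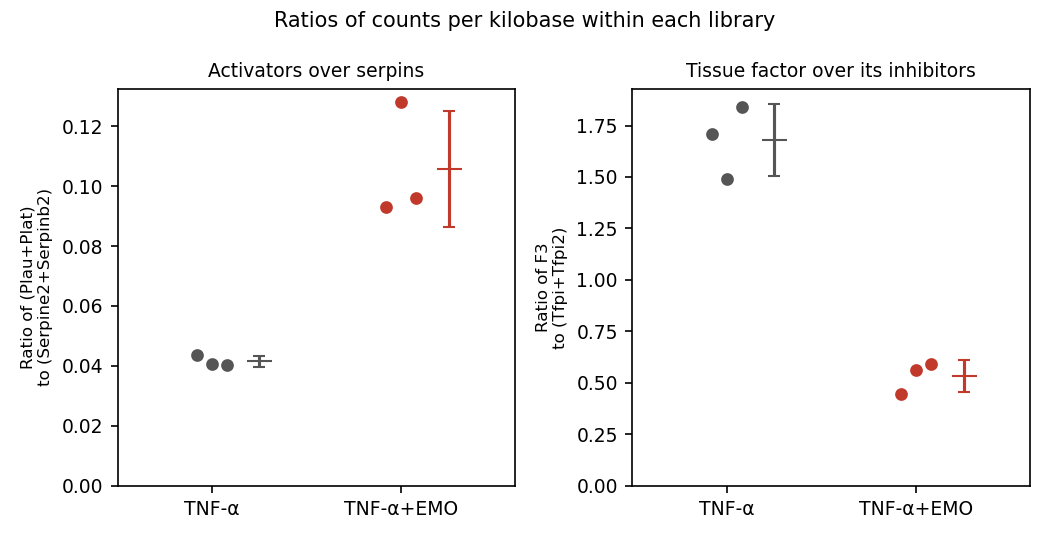
Ratio of summed counts per kilobase in each library (points) with the mean and SD of each group (bar, n = 3), for the activators over the serpins (left) and F3 over Tfpi and Tfpi2 (right), on axes that start at 0. The activator ratio was 0.0414 ± 0.00179 with TNF-α and 0.106 ± 0.0195 with EMO, and the F3 ratio was 1.68 ± 0.176 and 0.532 ± 0.0765.

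The wider pathway was read from 4 lists. Of 12 genes for plasminogen binding and clearance, 10 were tested and all 10 were called by edgeR, 7 lower and 3 higher, where 80.9% of all genes tested were called. Their median difference was -0.48 on the log2 scale, beside -0.01 over all genes. Of the called genes with a mean of at least 100 normalized counts, the 4 with the largest fold are named. Mrc2, a collagen receptor that associates with urokinase and its receptor, had normalized means of 14078 ± 433 with TNF-α and 120 ± 15.1 with EMO (SD, n = 3), or -6.87 ± 0.09 on the log2 scale (SE, as for all values after ± on this scale below). Lrp1, which takes up complexes of activator and serpin, changed by -3.22 ± 0.08, whereas Vldlr, which belongs to the same receptor family, rose by 3.29 ± 0.09 from a normalized mean of 357 ± 30.2 to 3500 ± 308 (SD). Anxa2, a subunit of the plasminogen-binding annexin complex, changed by -1.05 ± 0.05, and its row overlaps a listed gene with at most 7 counts. S100a10, the other subunit of that complex, was not among these 4 and went the other way. It rose by 0.74 ± 0.08, from a normalized mean of 2844 ± 23.6 to 4740 ± 530 (SD). Below a mean of 100 normalized counts, Clec3b, tetranectin, a plasminogen-binding protein, had 29, 44 and 40 counts with TNF-α and 0, 1 and 3 with EMO. Clec3b passed the filter only through the TNF-α libraries.

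Among 9 other inhibitors, 2 were tested and 1 was called, lower with EMO, where 80.9% of all genes tested were called. Of the 9, 4 were at 0 in every library. Serpini1, neuroserpin, which inhibits the tissue-type activator, changed by -4.26 ± 0.21, from a normalized mean of 297 ± 21.9 to 15.4 ± 4.46 (SD). Serpinc1, antithrombin, did not pass, at -0.17 ± 0.26 (edgeR adjusted p = 0.55).

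Of 26 coagulation factors, protein C pathway genes and thrombin receptors, 11 were tested, and 9 were called, 6 lower and 3 higher. This is 81.8%, beside 80.9% of all genes tested, and their median was -1.21 on the log2 scale. Of the 26 genes, 8 were at 0 in every library, among them F2 (prothrombin), F7, F9 and the fibrinogen chains Fga and Fgb. Pros1, the protein C cofactor protein S, rose by 0.85 ± 0.11, from a normalized mean of 387 ± 21.8 to 697 ± 105 (SD), and F8 changed by -1.21 ± 0.12. Tgm2 and Vwf passed the filter only through the TNF-α libraries. F2r, the thrombin receptor PAR1, had normalized means of 3008 ± 93.0 with TNF-α and 219 ± 50.1 with EMO (SD, n = 3), or -3.78 ± 0.14 on the log2 scale, and F2rl1, the receptor PAR2, changed by -1.57 ± 0.09. F2rl2, another receptor of the family, missed the threshold narrowly at -0.40 ± 0.17 (edgeR adjusted p = 0.0501), and Vkorc1 did not pass either, at -0.27 ± 0.12. Both depended on the scaling and on single libraries. With library totals alone and with upper-quartile factors, all 11 tested genes of this list were called. Vkorc1 passed at -0.38 ± 0.15 without TNF-α replicate 3 (edgeR adjusted p = 0.043) and at -0.41 ± 0.09 without TNF-α+EMO replicate 3 (edgeR adjusted p = 0.00037). F2rl2 passed at -0.54 ± 0.20 without TNF-α replicate 2 (edgeR adjusted p = 0.031) and at -0.49 ± 0.19 without TNF-α+EMO replicate 2 (edgeR adjusted p = 0.037). Tgm2, a transglutaminase that crosslinks matrix proteins, changed by -6.0 ± 0.24. Ggcx, the carboxylase that coagulation factors need, rose by 1.28 ± 0.06, from a normalized mean of 2516 ± 49.4 to 6107 ± 306 (SD).

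The remaining 30 serpin genes in the table included 8 that were tested, of which 4 were lower and 3 higher with EMO. That is 87.5% called, beside 80.9% of all genes tested. Of the 3 higher genes, Serpina1 and Serpina3c passed the filter through the TNF-α+EMO libraries, where they are high. The collagen chaperone Serpinh1 did not pass, at 0.05 ± 0.08 on the log2 scale. Serpinb6a, an intracellular serpin, rose by 3.04 ± 0.06, from a normalized mean of 2314 ± 102 to 19087 ± 270.0 (SD). Serpina1, α1-antitrypsin, rose by 4.99 ± 0.24, from 7.81 ± 2.93 to 253 ± 12.5 (SD). Serpinb9, the granzyme B inhibitor, changed by -2.52 ± 0.06, and Serpinb8 by -4.08 ± 0.12. Serpin genes of a clade resemble each other, so the counting could have split reads between close copies such as Serpinb6a and Serpinb6b. For these lists no test of the list as a whole was made.

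**Figure D5:**
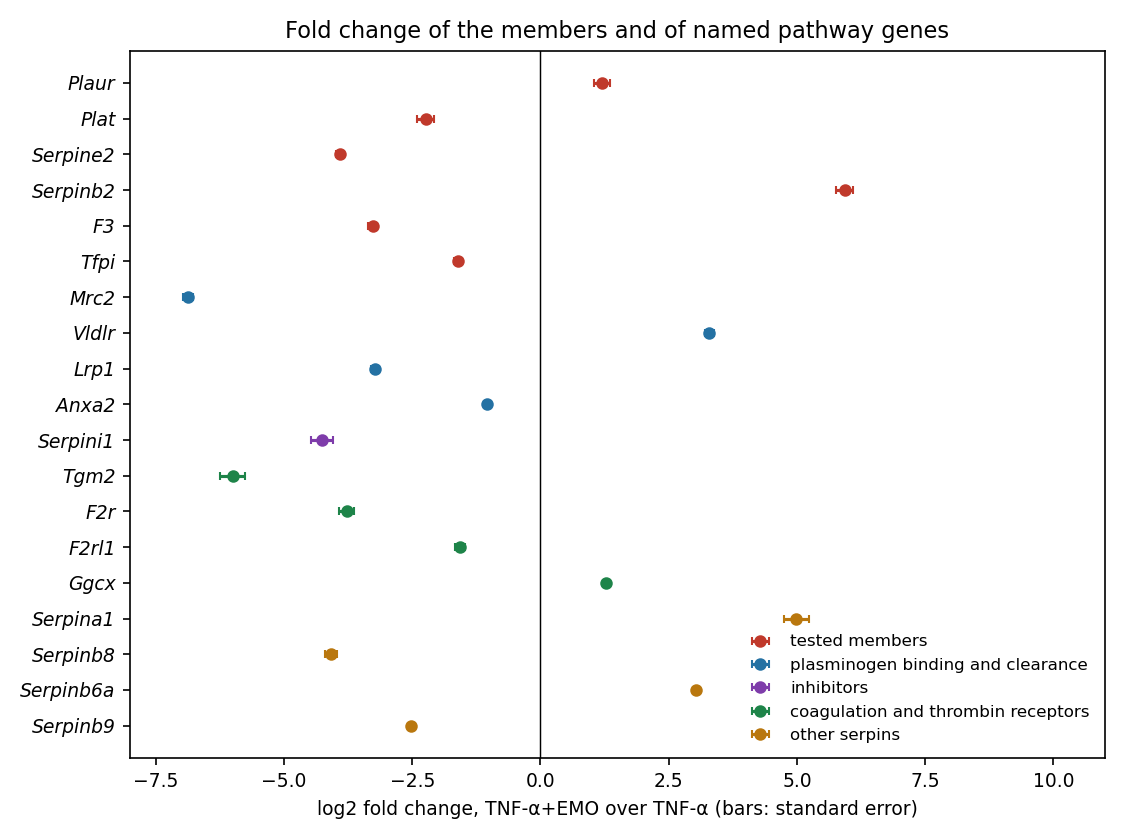
Log2 fold change of TNF-α+EMO over TNF-α with its standard error (bars), for the 6 tested members (red) and 13 genes named from the 4 pathway lists. Most points lie left of 0, and Plaur, Serpinb2, Vldlr, Ggcx, Serpina1 and Serpinb6a lie right of it.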

How the data were processed

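The members and gene lists were chosen with earlier results of these data known. The authors prepared poly(A)-selected paired-end libraries, and the submitters' processing notes name FastQC, Trimmomatic, HISAT2 and Rnor_6.0, to which the deposited coordinates are taken to belong. The counting program, annotation release and strand setting are not given in the sources used here. The authors deposited raw counts per gene and library, without normalization, and FPKM values, which the authors scaled by gene length and mapped fragments and which were not used here, nor were the columns of the authors' own comparison (group means, log2 fold change, p-value and adjusted p).

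The filter kept genes that reached 10 counts in 3 or more libraries. After TMM scaling they were compared with edgeR 4.0.16 (R 4.3.3) in a robust quasi-likelihood fit without covariates, and p-values were adjusted by Benjamini-Hochberg across these genes. The standard error (SE) was taken as the log2 fold change over the square root of its F. Normalized counts are scaled to the mean effective library size. The fits were tested on simulated counts. Samples were grouped by the treatment label. Exact permutation of 3 against 3 libraries allows no p smaller than 0.1. From each pathway list, up to 4 called genes with no overlap between groups and a mean of at least 100 normalized counts were named by the size of their fold change. Other pathway genes named, and those that did not pass, were chosen after their values were seen. Alternatives were DESeq2 1.42.0, other scalings, filters and thresholds, a replicate block, and leaving out each library. Col1a2 and Pecam1 were not analysed here, and a few listed genes are not reported here. Replicates differed by more than sampling noise (by chi-square per gene). Each was counted as its own sample, although this spread cannot show whether the samples were independent. Reads carry no molecular identifiers, so floors cover counting error only.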

Additional observations from a re-analysis of the deposited data

How the results depend on the processing

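The log2 fold changes of the 6 tested members kept their direction and their side of the threshold in all 14 alternative fits. These fits gave 84 values, which share the same libraries, and the largest adjusted p was 0.00099 (edgeR), for Plaur. Over the fits that each left out a library, the values ranged from 1.03 to 1.34 for Plaur, -2.45 to -2.11 for Plat, -4.0 to -3.84 for Serpine2, 5.76 to 6.08 for Serpinb2, -3.39 to -3.19 for F3 and -1.70 to -1.52 for Tfpi. Of 205 alternative values in all, 197 stayed within their limits. The other inhibitors had 2 genes called in place of 1 with no filter on low counts, and the other counts that left their limits did so with the fold threshold. Counts also varied within these limits. In place of 9, the coagulation list had 12 genes called with no filter and 11 with library totals alone. It had 7 without TNF-α replicate 1, where Tgm2 and Vwf fell under the filter, which still asked for 3 libraries. Tgm2 and Vwf also fell under it without TNF-α replicate 2 or 3. The other serpins had 10 in place of 7 with no filter. At an absolute log2 fold change over 1, 6442 genes were called in place of 11008 and 5 of the plasminogen binding and clearance list in place of 10, and at over 2 there were 3064 genes, 4 of that list and 3 of the coagulation list. With library totals alone, the log2 ratio of the summed fibroblast markers was -2.64 and that of the macrophage markers -0.82, and the median of all genes moved from -0.01 to -0.12. Same-numbered libraries of the groups did not deviate together (correlations of 0.009, -0.007 and 0.080), so the numbers were not taken as pairs. With the replicate number as a block, 10806 genes were called and no member's call changed. Depth limits Plau, Tfpi2 and Thbd, which are at or near the floor.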

Other observations

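Serpinb2 lies in a cluster of 10 Serpinb genes spanning 26903052 to 27914006 of chromosome 13 as deposited, most of which were nearly undetected. Serpinb10, 2920 bases downstream of it, had 0 counts in all 6 libraries, and Serpinb7, 95882 bases upstream, had at most 1. Serpinb8, 426335 bases away, was the only other gene of the cluster with enough counts to be tested, and it changed by -4.08 ± 0.12 on the log2 scale (SE) beside 5.93 ± 0.17 for Serpinb2. Serpinb8 had 667, 633 and 694 counts with TNF-α and 39, 33 and 40 with EMO. Serpinb3a, related to the squamous cell carcinoma antigens, differed in the same direction as Serpinb2 at low counts: it was at 0 in the TNF-α libraries and had 15, 4 and 8 counts with EMO, and Serpinb13 had 9, 2 and 6 counts with TNF-α and 0 with EMO. Of the 10 genes, 5 had at most 3 counts in every library. These genes were looked at because of their position, after the value of Serpinb2 was seen.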
